A study of Rattus rattus with 6 samples.

Results

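The genes described here are 6 of the protein-coding genes carried by mitochondrial DNA itself: Mt-cyb, the cytochrome b subunit of respiratory complex III; Mt-co1, Mt-co2 and Mt-co3, the catalytic core subunits of complex IV (cytochrome c oxidase); and Mt-atp6 and Mt-atp8, membrane subunits of complex V (ATP synthase). They were chosen by a list of Ensembl identifiers that pairs each identifier with its symbol, and all 6 were found among the 23976 genes of the table. No reference used here pairs the identifiers with symbols (0 of 23976 occurred in the RefSeq gene table), so the names rest on that list, and no identifier could be dropped for carrying another symbol. RNA came from the left ventricle of the heart of male wild type Wistar-Kyoto rats, an inbred strain. Young adults were 3 months of age and old adults 24 months, all untreated, with 3 libraries each and 1 animal per library per the labels. The labels call the species Rattus rattus, although this strain is a line of Rattus norvegicus.

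Mitochondrial DNA is transcribed as long precursors from which the single mRNAs are cut out, mostly at the transfer RNAs that lie between them. The proteins they encode are assembled in the inner membrane with many subunits encoded in the nucleus. Complexes III and IV pass electrons to oxygen and pump protons, and complex V uses the proton gradient to make ATP, on which the beating ventricle depends. In the RefSeq order of the mitochondrial genes (Rrattus_CSIRO_v1, a Rattus rattus assembly), COX1, COX2, ATP8, ATP6 and COX3 follow one another, and CYTB stands apart at the end of the order. ATP8 and ATP6 share one mRNA and their reading frames overlap, so reads in the shared stretch can be divided between them in more than one way, and the levels of both genes are uncertain to that degree.

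Levels are given in TPM, transcript abundance per unit of length brought to a sum of 1000000 in each library. A library's TPM can therefore only show relative levels, and the read depth is unknown. In a whole tissue, fewer cells of a type and less RNA per cell cannot be told apart. The cell types of the tissue could not be checked against their markers, because the markers are known by symbol.

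The 6 subunit genes together took 60.5% ± 2.47 of all TPM at the young age and 60.7% ± 0.518 at the old age (mean ± SD over 3 libraries), and the groups overlapped. The single values were 62.8%, 57.9% and 60.8% in young replicates 1, 2 and 3, and 60.8%, 61.1% and 60.1% in the old libraries OH1, OH2 and OH5. The old libraries lay within the range of the young ones (p = 0.8 in a two-sided exact permutation test). None of the 6 subunit genes passed the threshold between ages (limma on log2(TPM + 1), Benjamini-Hochberg adjusted p below 0.05 over 9502 genes), whereas 47.7% of all genes tested did, most of them lower in old (46.8% lower, 0.884% higher). That split was seen on deposited TPM: 283 genes were higher and 270 lower with median-ratio scaling, and 266 higher and 311 lower with quantile normalization. Both scalings bring the libraries to a common middle. A near-even split is therefore built into them, and the comparison cannot decide which scale is right. At an unadjusted limma p below 0.05, 0 of the 6 passed with all libraries (62.9% of all genes did), 1 with a filter of at least 10 TPM (57.8% of all genes), 1 when scaled to the 12 genes of at least 10000 TPM (65.3%) and 2 with median-ratio scaling (23.9%). The log2 fold changes of the 6 subunit genes ran from -0.21 to 0.33 with a median of 0.01, against a median of -0.53 over all genes tested.

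**Figure D1:**
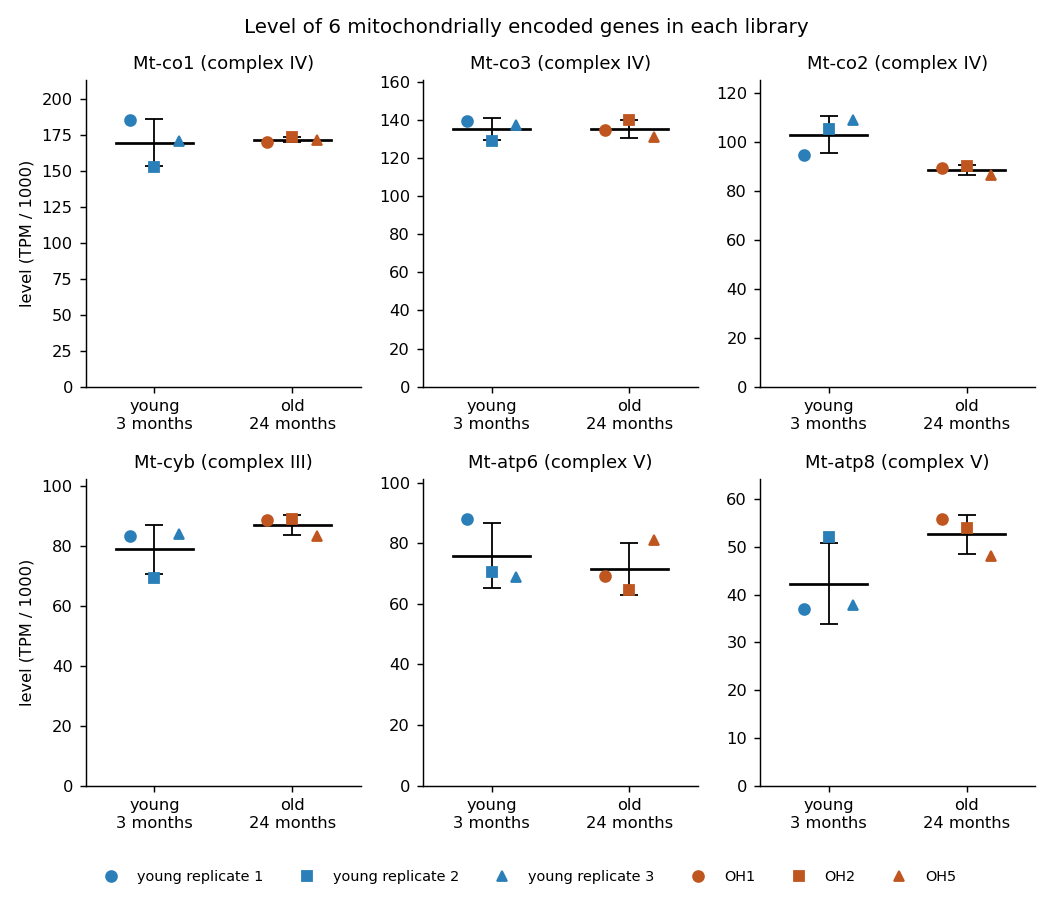
Level of each gene in TPM divided by 1000 (vertical axes, from 0) in the 3 young and 3 old libraries. Points are libraries, horizontal lines are means and bars are 1 SD. On this scale Mt-co2 is the gene whose young and old libraries do not overlap; after median-ratio scaling its estimate turned (log2 fold change 0.49).

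The subunits of complex IV were the most abundant. Mt-co1 (ENSRNOG00000034234), which carries the haem and copper centre where oxygen is reduced, held the first rank in every library. It stood at 185431, 152669 and 170766 TPM in young replicates 1 to 3 and at 170299, 173284 and 171608 TPM in OH1, OH2 and OH5. The old libraries were close together (SD 1496 TPM) and lay inside the wide range of the young ones (SD 16411 TPM). The log2 fold change, old over young, was 0.02 ± 0.13 (SE), with a 95% interval of -0.23 to 0.28 and a limma adjusted p of 0.872. Mt-co3 (ENSRNOG00000030700), a core subunit without metal centres, was second in every library. It stood at 139405, 128734 and 137105 TPM in the young libraries and at 134568, 140000 and 130845 TPM in the old ones, the narrowest relative range of the 6 (1.09-fold from lowest to highest library). Its log2 fold change was 0.00 ± 0.13 (95% interval -0.27 to 0.27, limma adjusted p = 0.996).

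Mt-co2 (ENSRNOG00000030371), the subunit that takes electrons from cytochrome c, was lower in each old library than in any young one on deposited TPM, a direction that turned after median-ratio scaling (log2 fold change 0.49). It stood at 94488, 105231 and 109001 TPM in young replicates 1 to 3 and at 89372, 90224 and 86365 TPM in OH1, OH2 and OH5. Young replicate 1 was the young library nearest to the old ones. The means were 102907 ± 7530 TPM for young and 88654 ± 2027 for old libraries (SD, n = 3). The log2 fold change of -0.21 ± 0.15 (95% interval -0.50 to 0.08) did not pass the threshold (limma adjusted p = 0.179). It passed in 2 alternative fits, without young replicate 1 (log2 fold change -0.27, limma adjusted p = 0.0416) and with a pseudocount of 10 TPM (-0.21, limma adjusted p = 0.0178), in which 93.2% and 45.3% of all genes passed. With the pseudocount of 10 TPM the estimate stayed the same and the SE was 0.071. That SE rests almost wholly on a spread shared by all genes. Mt-co2 was 1 of 6 subunit genes whose groups did not overlap in TPM. Of all genes tested, 55% had groups that did not overlap.

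The complex III gene Mt-cyb (ENSRNOG00000031766), whose protein carries electrons across the membrane between the quinone sites, stood at 83154, 69195 and 83957 TPM in the young libraries and at 88736, 89073 and 83135 TPM in the old ones. Young replicate 2 was the low one, and the lowest old library, OH5, lay below young replicates 1 and 3. The log2 fold change was 0.15 ± 0.15 (95% interval -0.15 to 0.45, limma adjusted p = 0.360). Without young replicate 2 it was 0.057.

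The 2 complex V genes lie on a shared mRNA, and neither passed the test. Mt-atp6 (ENSRNOG00000031979), the subunit that forms the proton path beside the rotating ring, stood at 88216, 70679 and 68931 TPM in the young libraries and at 69097, 64626 and 80972 TPM in the old ones. The highest library of each age, young replicate 1 and OH5, stood well above the other 2 of its group. Its log2 fold change was -0.08 ± 0.16 (95% interval -0.39 to 0.23, limma adjusted p = 0.619). Mt-atp8 (ENSRNOG00000033299), a small membrane subunit of the stator part of the enzyme and the lowest of the 6, stood at 36921, 52046 and 37816 TPM in the young libraries and at 55964, 53972 and 48130 TPM in the old ones. Young replicate 2 lay among the old libraries, above OH5. Mt-atp8 had the largest estimate of the 6, a log2 fold change of 0.33 ± 0.17 (95% interval -0.01 to 0.67, limma adjusted p = 0.0846). It passed in 2 alternative fits, without young replicate 2 (0.49, limma adjusted p = 0.0284), in which 7.06% of all genes passed, and with a pseudocount of 10 TPM (0.33, limma adjusted p = 0.0224). Without young replicate 2 the SE rested wholly on a spread shared by all genes. With the pseudocount of 10 TPM it did so almost wholly, and was 0.12 for an unchanged estimate. With quantile normalization the log2 fold change of Mt-atp8 was -0.013.

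**Figure D2:**
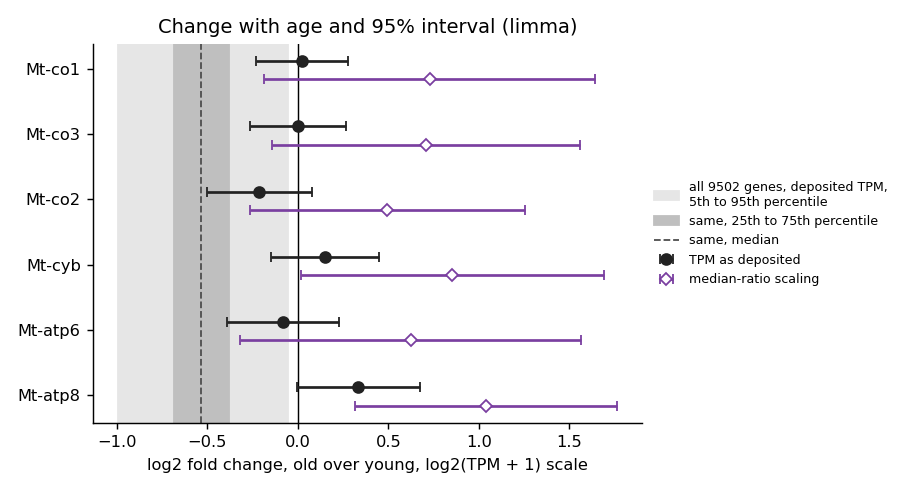
Log2 fold change of each gene, old over young, with its 95% interval from limma (horizontal axis), on deposited TPM (filled) and after median-ratio scaling (open). The grey bands give the percentiles of all 9502 genes on deposited TPM, with a median of -0.53. The 6 estimates on deposited TPM lie between -0.21 and 0.33.

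The deposited scale sets the 6 subunit genes against a total of which they are the larger part. With a pseudocount of 1 TPM, their log2 fold changes lay 0.32 (Mt-co2) to 0.87 (Mt-atp8) above the median of all genes. That median depends on the pseudocount: it was -0.68 with 0.1 TPM and -0.18 with 10 TPM. The log2 fold changes of the 6 subunit genes hardly changed with it. Scaling the libraries by the median ratio of all tested genes brought the median of all genes from -0.53 to 0.00. The 6 subunit genes moved by more than that, Mt-co3 from 0.00 to 0.71. All genes of a library are divided by 1 factor, so the larger move is no trait of the 6 subunit genes. The pseudocount of 1 TPM damps the change of genes at low levels. The 6 log2 fold changes then ran from 0.49 (Mt-co2) to 1.04 (Mt-atp8), and the signs for Mt-co2 and Mt-atp6 turned. None of the 6 passed on this scale either (limma adjusted p 0.0971 to 0.407), while 5.82% of all genes did. Genes below 1000 TPM together made up 9.19% ± 2.42 of TPM in the young libraries and 5.66% ± 0.506 in the old (n = 3). The single values were 6.39%, 10.6% and 10.5% in young replicates 1 to 3, and 5.84%, 6.05% and 5.08% in OH1, OH2 and OH5. Young replicate 1 thus lay near the old libraries. The median-ratio factors were 0.918, 1.48 and 1.53 in young replicates 1 to 3, and 0.826, 0.835 and 0.697 in OH1, OH2 and OH5. The part of these genes in the values above was not tested.

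Seen within each library, the order of levels was nearly fixed. Mt-co1 exceeded Mt-co3, Mt-co3 exceeded Mt-co2, Mt-co2 exceeded Mt-cyb, and Mt-atp6 exceeded Mt-atp8 in 6 of 6 libraries. Mt-cyb exceeded Mt-atp6 in 4 of 6, all but young replicates 1 and 2. The ranges of Mt-co2 and Mt-cyb over the libraries overlapped, as did those of Mt-cyb and Mt-atp6, although Mt-co2 was the higher of the former pair within each library, by 1.01-fold to 1.52-fold. Mt-cyb and Mt-atp6 did not differ beyond their spread. Among all 23976 genes the 6 subunit genes held ranks 1, 2, 3, 4, 6 and 9 by mean TPM.

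The planned base for comparing them with one another was the sum of all mitochondrially encoded mRNAs. The remaining such mRNAs have no names in the sources used here, so the base was the 15 genes that averaged 1000 TPM or more, and, chosen after the data were seen, the 12 genes that averaged 10000 TPM or more. The 12 leave out 3 genes that held 5.15% of TPM in young replicate 2 and 1.19% to 1.98% in the other libraries. Of the 15 genes, the 6 subunit genes made up 66.6% ± 1.63 in young and 64.3% ± 0.891 in old ventricle (SD, n = 3), with young replicate 2 at 64.8% inside the old range (two-sided exact permutation p = 0.2). Of the 12 genes they made up 68.1%, 68.7% and 69.4% in young replicates 1 to 3 and 65.4%, 66.3% and 64.6% in OH1, OH2 and OH5. On this base each old library lay below each young one, by 3.32 percentage points on average (68.7% ± 0.680 against 65.4% ± 0.833). The two-sided exact permutation p was 0.1, the lowest that 3 against 3 libraries allow, and 0.3 after Benjamini-Hochberg adjustment over 9 shares.

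**Figure D3:**
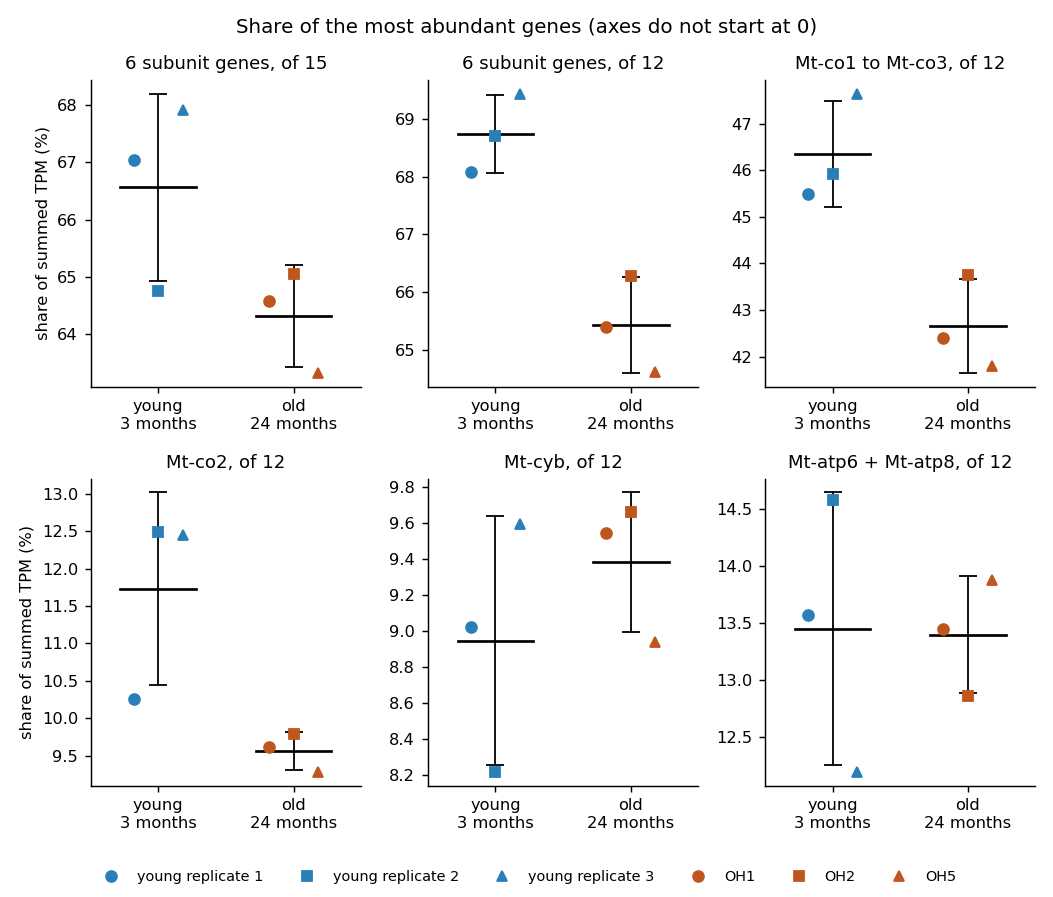
Share of the summed TPM of the 15 or 12 most abundant genes (vertical axes in percent, not starting at 0) held by the 6 subunit genes together, by the 3 complex IV genes, by Mt-co2, by Mt-cyb and by the 2 complex V genes. Points are libraries, lines are means and bars are 1 SD. Young and old libraries are apart for the 6 subunit genes of 12 genes, for complex IV and for Mt-co2, and overlap in the other panels.

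The counterpart was the 6 other genes of at least 10000 TPM, which carry no names in the sources used here. Of all TPM they took 27.5% ± 1.68 in the young libraries and 32.1% ± 0.915 in the old ones. The summed level of the 6 subunit genes was 2.13, 2.20 and 2.27 times theirs in young replicates 1 to 3 and 1.89, 1.97 and 1.83 times in the old libraries. The ratio was thus lower in each old library than in any young one (two-sided exact permutation p = 0.1, the lowest this design allows). Within the 12 genes both parts are shares of 1 sum, so a lower share of one is a higher share of the other. The ratio thus restates the 12-gene share above and is no separate result. Of all TPM, the 6 subunit genes took 60.5% ± 2.47 in the young libraries and 60.7% ± 0.518 in the old ones.

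By complex, the share of complex IV was lower in each old library than in any young one. Its 3 genes made up 44.9% ± 1.66 of the 15 genes in young and 41.9% ± 0.993 in old ventricle, and 46.4% ± 1.14 against 42.7% ± 1.003 of the 12 genes (SD, n = 3). The groups did not overlap on either base (two-sided exact permutation p = 0.1 on both, adjusted 0.5 over 10 values on the 15 genes and 0.3 over 9 on the 12). Mt-co2 alone accounted for 2.18 of the 3.70 percentage points on the 12 genes. It made up 10.2%, 12.5% and 12.5% of them in young replicates 1 to 3 and 9.61%, 9.78% and 9.28% in OH1, OH2 and OH5. Mt-co1 held 19.3% ± 1.02 of the 12 genes in young and 18.5% ± 0.245 in old. Mt-co3 held 15.4% ± 0.281 and 14.6% ± 0.565, with groups that overlapped for both. Their deposited TPM hardly differed between ages (log2 fold change 0.02 and 0.00), while the 6 other genes took more of all TPM in old. As a part of the 6 subunit genes alone, complex IV was 2.23 points lower in old. On that base Mt-co2 was 2.45 points lower, Mt-co1 0.291 points higher and Mt-co3 0.0738 points lower.

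The complex V genes together differed between ages by less than their spread, at 13.5% ± 1.19 in young and 13.4% ± 0.511 in old ventricle, as parts of the 12 genes. Mt-cyb held 8.94% ± 0.692 in young and 9.38% ± 0.388 in old, with overlapping groups. Its difference of 0.551 percentage points on the 15 genes was 0.0877 without young replicate 2. As a part of the 6 subunit genes alone, Mt-cyb did not overlap between the ages, at 13.2%, 12.0% and 13.8% in young and 14.6%, 14.6% and 13.8% in old ventricle (two-sided exact permutation p = 0.1, adjusted 0.267 over 8 shares). Its gap between young replicate 3 and OH5 was small on this base. Mt-co2 was lower in old without overlap on the same base, at 17.1% ± 1.74 in young and 14.6% ± 0.211 in old. These shares are parts of 1 sum, so the higher Mt-cyb share cannot be read apart from the lower Mt-co2 share. Counted singly, 1 of 6 subunit genes had shares that did not overlap on each of the 15-gene and 12-gene bases, and 26.7% of the 15 and 16.7% of the 12 genes did, so the count is near that of the genes they were set among.

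Each library name in the table ends in _1 or _2, a suffix that the labels leave unexplained. Under suffix _1 (2 young libraries, 1 old) the share of the 6 subunit genes in the 12 genes was 3.36 percentage points lower in old, and under suffix _2 (1 young, 2 old) 3.27 points lower. For Mt-co2 the differences were 1.74 and 2.96 points, also lower in old. Neither of these shares of the 12 genes overlapped between ages. A lower old value under each suffix was thus fixed in advance and is no check on the suffix. On the 15 genes the share of the 6 subunit genes was 2.90 and 0.562 points lower. Their part of all TPM was 0.956 points lower in old under suffix _1 and 2.76 points higher under suffix _2.

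**Figure D4:**
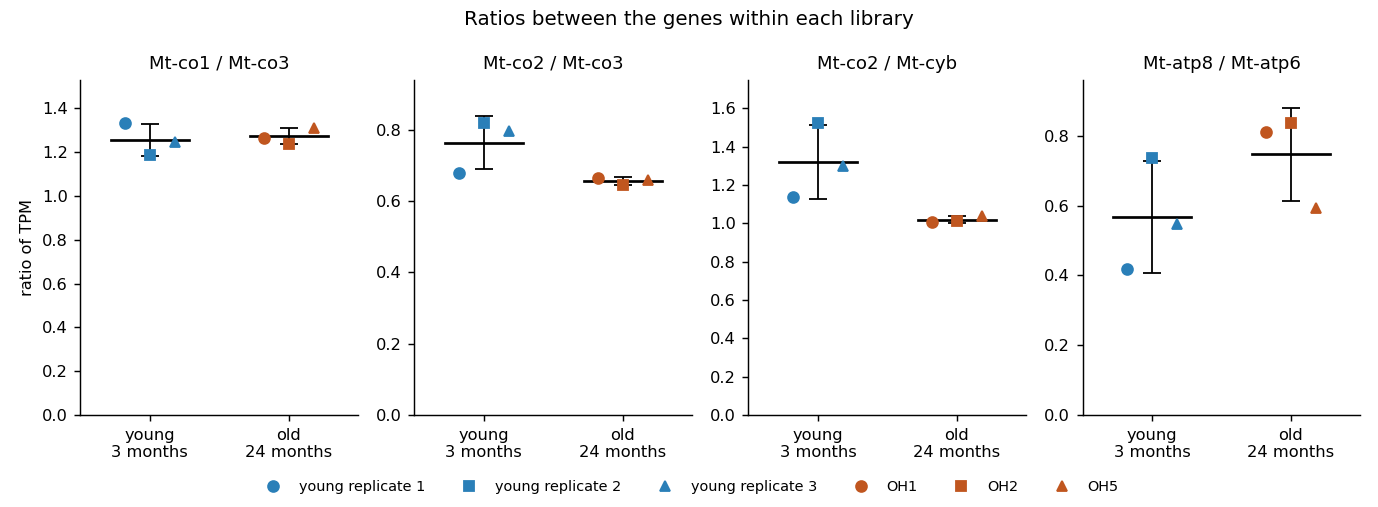
Ratio of TPM between pairs of subunit genes in each library (vertical axes from 0). Points are libraries, lines are means and bars are 1 SD. Mt-co1 over Mt-co3 is nearly level, Mt-co2 over Mt-co3 and over Mt-cyb is lower in the old libraries, and Mt-atp8 over Mt-atp6 varies within both ages.

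Ratios between the genes within a library do not depend on the total. Mt-co1 over Mt-co3 was the most even, from 1.19 to 1.33 over the 6 libraries. Of the 15 pairs, 4 had young and old ratios that did not overlap, and 27.3% of the 66 pairs among the 12 genes did, which is about the same part. The 4 pairs were Mt-co2 over Mt-co3, over Mt-cyb and over Mt-atp8, and Mt-co3 over Mt-cyb, each lower in old (two-sided exact permutation p = 0.1, adjusted 0.375 over 15 pairs). Mt-co2 over Mt-cyb was 1.14, 1.52 and 1.30 in young replicates 1 to 3 and 1.01, 1.01 and 1.04 in OH1, OH2 and OH5. The old ratios were close together, at 1.02 ± 0.0169 against 1.32 ± 0.193 in young (SD, n = 3). Mt-co2 over Mt-atp8 was 2.56, 2.02 and 2.88 in young and 1.60, 1.67 and 1.79 in old ventricle.

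Mt-atp8 and Mt-atp6 share an mRNA, yet their ratio ran from 0.419 to 0.835, a 2.00-fold range over the 6 libraries. It was 0.419, 0.736 and 0.549 in young replicates 1 to 3 and 0.810, 0.835 and 0.594 in OH1, OH2 and OH5. The groups overlapped (0.568 ± 0.160 in young, 0.746 ± 0.132 in old, two-sided exact permutation p = 0.2, adjusted 0.5 over 10 values). Young replicate 1 and OH5 had the lowest ratio of their ages and the highest Mt-atp6 level. Mt-atp6 is the divisor of the ratio, so these are not separate observations. Measured against the other 5 genes, Mt-atp8 varied most between libraries (SD of the log2 ratio 0.31) and Mt-co3 least (0.03), with Mt-co1 at 0.07, Mt-cyb at 0.12, and Mt-atp6 and Mt-co2 at 0.18.

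Genes with the most even ratio to the sum of the 6 subunit genes were sought among 9588 genes. These averaged 1 TPM or more and were never at 0. The measure was the SD of the log2 ratio to that sum over the 6 libraries. That sum varied little, from 57.9% to 62.8% of all TPM. The measure therefore mostly picks genes of steady TPM and does not show that they follow the 6 subunit genes. Other mitochondrial mRNAs were to be left out, but they have no names here and were kept. The median gene had an SD of 0.54, and the 5 most even genes had 0.12 to 0.13. Of these 5 genes, 2 were among the 12 most abundant (ranks 5 and 12), of which ENSRNOG00000030644 stood at 76406 ± 7832 TPM in young libraries and at 84025 ± 4932 in old ones. The other 3 lay between 1.41 and 4.63 TPM in every library, among them ENSRNOG00000046050 with 1.68 ± 0.133 TPM in young libraries and 1.53 ± 0.108 in old ones.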

How the data were processed

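The authors deposited TPM for 23976 genes in 6 libraries, and each column summed to 1000000. Per the submitters' processing notes, Salmon and the build mRatBN7.2 were used. Not given in the sources used here are the version, the annotation release and the summing of transcripts. Per the labels' protocols, RNA was depleted of ribosomal RNA and libraries were directional and paired-end. Young columns were matched to samples by the individual number. Old columns (OH1, OH2, OH5) were matched to the group only, because the numbers 1 and 2 are not those of old samples.

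Ages were compared with limma-trend (limma 3.58.1, R 4.3.3) on log2(TPM + 1) for genes that reached 1 TPM in 3 or more libraries. The fit was checked on simulated data with independent noise for each gene. That check holds no shift shared by the genes of a library, so it does not cover such shifts. Prior degrees of freedom were 91.8, so SE and adjusted p rest mostly on a spread shared by all genes. They were 268 with a pseudocount of 10 TPM and 9.19 without young replicate 1. Without young replicate 2 they were infinite, so a gene's own spread played no part in that fit. Shares and ratios were compared with two-sided exact permutation tests, whose smallest p is 0.1. Alternatives were other pseudocounts, filters and scalings, no trend, the name suffix as a term, other bases for shares and leaving out each library. The limma p-values set a difference between ages against that mostly shared spread. The permutation p-values set it against the other divisions of these libraries into groups. The genes, lists and tests were chosen with earlier results of these data known. Named were the 6 subunit genes and, of the 5 genes most even with them, 2. Lists of nuclear-encoded subunits, assembly and mitochondrial expression factors and cell type markers are by symbol and were not used here, and no sequences are printed.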

Additional observations from a re-analysis of the deposited data

How the results depend on the processing

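Of the 6 subunit genes, 0 passed with all libraries, although a limma fit with a pseudocount of 10 TPM called 2 (Mt-co2, Mt-atp8), with 45.3% of all genes. Leaving out 1 library called 0 to 1, with 1 only without young replicate 1 (Mt-co2; 93.2% of all genes) or young replicate 2 (Mt-atp8; 7.06% of all genes). When scaled to the 12 genes, the log2 fold changes of Mt-co1 and Mt-co3 turned to -0.055 and -0.076. Without single libraries that of Mt-co1 ran from -0.051 (without young replicate 2) to 0.089, that of Mt-co3 from -0.033 (without young replicate 2; -0.025 without OH2) to 0.024, and that of Mt-atp6 from -0.18 to 0.030 (without young replicate 1). Mt-cyb ran from 0.057 (without young replicate 2) to 0.20, Mt-co2 from -0.27 to -0.17 and Mt-atp8 from 0.25 to 0.49. With median-ratio scaling Mt-co2 turned to 0.49 and Mt-atp6 to 0.62. Mt-atp8 turned to -0.013 with quantile normalization, where a level depends on rank alone and Mt-atp8 held ranks 8 to 10. Quantile normalization cannot show a change for Mt-co1 and Mt-co3, whose rank is fixed. The old minus young difference in Mt-co1 share, -0.457 percentage points of the 15 genes, turned to 0.291 within the 6 subunit genes and ran from -1.24 to 0.117 (without young replicate 1) when 1 library was left out. That of the complex V share, 0.157 points, turned to -0.0533 on the 12 genes and ran from -0.383 (without young replicate 3; -0.0590 without OH5) to 0.519. The difference in the part of all TPM, 0.218 points, ran from -1.08 (without young replicate 2) to 1.37, and was -0.00362 without OH2. The difference in the share of the 6 subunit genes was -2.25 points on the 15 genes. Without single libraries it was -1.58 to -3.16 points, and -2.91 to -3.74 on the 12 genes. On the 12 genes the groups did not overlap, so leaving out 1 library could not change the sign. The same holds for the log2 fold change of Mt-co2 on deposited TPM. The cause of the turns named above was not tested. The number of all genes called, 4533, was 3 without a filter (6968 at an unadjusted p below 0.05), 607 with a filter of at least 10 TPM (fewer genes tested), 553 with median-ratio scaling, 577 with quantile normalization and 1385 with the name suffix as a second term. It ran from 388 (without OH5) to 8857 (without young replicate 1) when single libraries were left out. Bases that need the names of other mitochondrial mRNAs were not run. No paired analysis was possible because the old columns carry no replicate number of the labels. Such numbers would not define pairs in any case, because the labels link no young animal to an old one. The depth is unknown, so what it limits cannot be stated.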
